A study of Mus musculus with 9 samples.

Results

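The subject here is open chromatin called in Tbx1-lineage libraries, in no Mesp1-lineage library, and still called when Tbx1 is inactivated. For this, 649 regions of the mouse genome were taken from the ATAC-seq peak lists of 9 libraries. Overlapping peaks of all lists on chromosomes 1 to 19 and X were merged into 73301 regions. The 649 members were selected on the peak calls themselves: they overlapped, by at least 1 bp, a peak of all 3 Tbx1-Cre Ctrl libraries, a peak of at least 2 of the 3 Tbx1-Cre cKO libraries and no peak of any of the 3 Mesp1-Cre Ctrl libraries. They made up 0.885% of all merged regions. Presence or absence of a peak in these libraries is thus a property of the rule and is described below without a test.

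ATAC-seq reads out accessible DNA through the insertions of a transposase, and a peak is an interval rich in insertions. Swiss Webster embryos of E9.5 were pooled, and GFP-positive cells were sorted from embryos in which a Cre recombinase had switched on a floxed GFP allele at Rosa26 (labelled Rosa26-GFPflox/+). The Mesp1-Cre Ctrl embryos had the genotype Mesp1Cre;Rosa26-GFPflox/+ and unmodified Tbx1. The Tbx1-Cre Ctrl embryos were Tbx1Cre;Rosa26-GFPflox/+, and since the Cre sits in the Tbx1 locus and inactivates that copy they were heterozygous for Tbx1. The Tbx1-Cre cKO embryos were Tbx1Cre/flox;Rosa26-GFPflox/+, with the floxed copy removed wherever the Cre was active. The labels give the tissue as pharyngeal apparatus and heart for the Mesp1-Cre libraries and as the same with back for the Tbx1-Cre libraries, whereas the methods of the study describe dissections without the heart. The Cre line, the number of intact Tbx1 copies and the dissection can therefore not be told apart in any difference between Mesp1-Cre and Tbx1-Cre libraries. The peak lists of the Cre lines also differed in ways described further down. Nothing in the labels says whether the 3 libraries of a group came from separate litters, so p-values measure only the spread between these libraries.

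Mesp1 is switched on in early mesoderm, and its lineage gives rise to the mesoderm of the heart and pharyngeal arches, with endothelial cells among its descendants. Tbx1, the T-box transcription factor gene associated with DiGeorge syndrome, is active in pharyngeal mesoderm and also in pharyngeal endoderm and ectoderm and in the otic vesicle, so its lineage holds epithelial cells that Mesp1-Cre does not mark. Distal open regions often act as enhancers and differ between cell types, while promoters and sites of the insulator protein CTCF are open in most cell types.

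The Tbx1-Cre Ctrl lists held between 43298 and 49490 peaks, the cKO lists between 19772 and 29251, and the Mesp1-Cre lists between 25485 and 42650. Mesp1-Cre replicate 1 had the 42650 peaks, more than every cKO list. A list of that length is not among those that the sample summary of the study gives for Mesp1-Cre. The number of reads is unknown, and the lack of a peak does not show that chromatin was closed. Within 10 kb of the targeted gene Tbx1, the Ctrl libraries held 3, 2 and 2 peaks, the cKO libraries 0, 0 and 0, and the Mesp1-Cre libraries 1 each. Peaks within 1 kb of a transcription start site (TSS) were found for 11 to 15 of 27 epithelial genes in the Tbx1-Cre Ctrl libraries, 7 to 12 in the Mesp1-Cre libraries and 3 to 9 in the cKO libraries. For 20 genes of cardiopharyngeal mesoderm, the progenitor field of heart and head muscle, these counts were 16 to 17, 14 to 17 and 10 to 13. For 15 genes of endothelium and blood they were 7 to 8, 7 to 10 and 4 to 6. The share of all protein-coding genes with such a peak is not given here, and the lists differ in length. These counts therefore do not show a gain or loss at the listed genes.

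The DNA of 4 members is shown because they stand for what follows: a region beside a gene of the otic list (Eya1), a region inside a gene of the neural crest list (Ets1) and the 2 members with the widest peaks (Ext2 and Lifr). Each is the central 300 bases on the plus strand of NCBIM37 (mm9), at chr1:14305951-14306250, chr9:32464778-32465077, chr2:93615784-93616083 and chr15:7012281-7012580. Capitals mark matches, on either strand, to the motif letters given further down.
Eya1 region: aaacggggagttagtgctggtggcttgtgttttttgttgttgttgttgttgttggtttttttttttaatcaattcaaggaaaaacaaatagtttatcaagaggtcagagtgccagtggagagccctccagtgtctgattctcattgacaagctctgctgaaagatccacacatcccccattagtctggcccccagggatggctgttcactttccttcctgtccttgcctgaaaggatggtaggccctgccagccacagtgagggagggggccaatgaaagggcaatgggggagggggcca
Ets1 region: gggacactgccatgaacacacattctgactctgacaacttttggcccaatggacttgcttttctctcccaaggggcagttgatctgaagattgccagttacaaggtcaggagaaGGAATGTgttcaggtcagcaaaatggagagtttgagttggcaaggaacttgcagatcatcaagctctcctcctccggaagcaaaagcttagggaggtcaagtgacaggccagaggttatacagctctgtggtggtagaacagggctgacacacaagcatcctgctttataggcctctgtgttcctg
Ext2 region: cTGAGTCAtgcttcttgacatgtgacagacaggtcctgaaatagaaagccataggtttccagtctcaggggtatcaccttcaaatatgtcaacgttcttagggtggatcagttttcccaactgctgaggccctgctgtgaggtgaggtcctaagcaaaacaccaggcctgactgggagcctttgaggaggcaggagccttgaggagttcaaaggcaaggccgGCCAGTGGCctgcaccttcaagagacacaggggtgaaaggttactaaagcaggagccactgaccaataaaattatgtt
Lifr region: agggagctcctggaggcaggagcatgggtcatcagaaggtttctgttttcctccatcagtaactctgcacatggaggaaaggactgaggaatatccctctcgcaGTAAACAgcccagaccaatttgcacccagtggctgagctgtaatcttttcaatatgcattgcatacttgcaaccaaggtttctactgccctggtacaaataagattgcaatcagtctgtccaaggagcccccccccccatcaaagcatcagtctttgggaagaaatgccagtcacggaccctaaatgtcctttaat
The Eya1 window held none of the 12 motifs. Both cKO peaks of the Eya1 member lay outside this window, 183 to 456 bp and 184 to 444 bp from the midpoint. The printed Eya1 bases were thus not called in any cKO library. The Ets1 window held 1 match to the TEAD letters, the Ext2 window held AP-1 letters at base 2 and AP-2 letters at base 223, and the Lifr window held forkhead letters at base 105. None of the 4 windows touched an annotated exon.

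First, the members were placed among all regions of the Tbx1-Cre Ctrl libraries. Of 4102 regions with a peak in all 3 Ctrl libraries and in no Mesp1-Cre library, 649 had a peak in at least 2 cKO libraries, or 15.8%. Of the regions with a peak in all 3 Ctrl and all 3 Mesp1-Cre libraries, 89.8% had one. The opposite pattern, a peak in all 3 Ctrl libraries, in at least 2 Mesp1-Cre libraries and in no cKO library, was found in 1423 regions. Regions called in the Tbx1-Cre Ctrl libraries alone, in no cKO and no Mesp1-Cre library, numbered 2270.

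**Figure D1:**
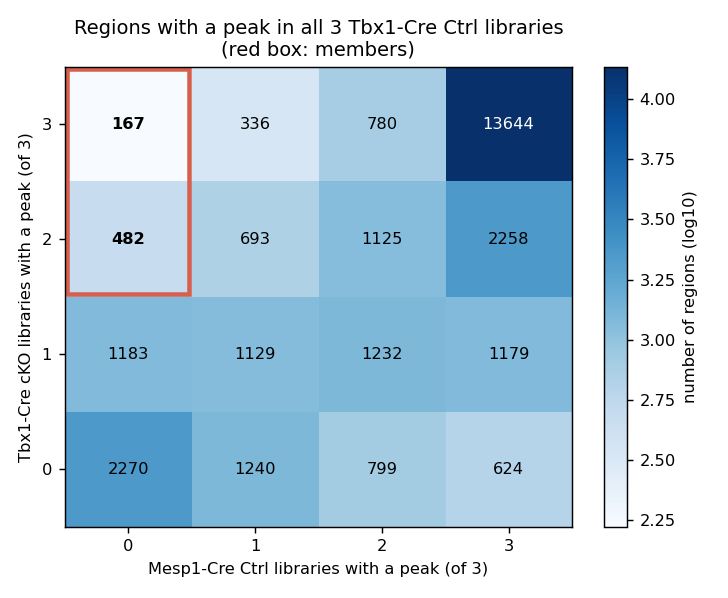
Number of merged regions with a peak in all 3 Tbx1-Cre Ctrl libraries, by the number of Mesp1-Cre Ctrl libraries (x axis) and of Tbx1-Cre cKO libraries (y axis) with a peak; colour gives the count on a log10 scale. The members are the 2 boxed fields, 482 and 167 regions, and the field with all 9 libraries holds 13644.

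The same shares were read by the width of the Ctrl peaks, as a description, since the rule used these calls. Among regions whose Ctrl peaks averaged 466.3 bp or less, 6.35% of those without a Mesp1-Cre peak were kept in at least 2 cKO libraries, against 55.6% of those with a peak in all 3 Mesp1-Cre libraries. In the next class of the same size, up to 641.7 bp, the shares were 20.7% and 80.3%. Up to 843 bp they were 45.4% and 94.2%, and above 843 bp they were 56.7% of 67 regions and 99.2% of 6916. The share kept was lower for regions without a Mesp1-Cre peak in each of the 4 classes of Ctrl width, and most of these regions lay in the lowest 2.

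The cKO libraries did not contribute equally. A peak of cKO replicate 1 overlapped 604 members, one of replicate 2 overlapped 495 and one of replicate 3 overlapped 366, in the order of the lengths of their lists. There were 283 members called by replicates 1 and 2 alone, 154 by 1 and 3, 45 by 2 and 3, and 167 by all 3. Without cKO replicate 1 the rule left 212 members and without cKO replicate 2 it left 322, since both other libraries were then needed. Without Mesp1-Cre replicate 1 it left 1502.

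Just inside the rule, the 482 members with 2 cKO libraries had a median Ctrl width of 561.5 bp and a median cKO width of 301 bp. Just outside it, the 1183 regions with 1 cKO library and no Mesp1-Cre library had 457 bp and 253 bp. On the Mesp1-Cre side, the 1029 regions kept in at least 2 cKO libraries but called in 1 Mesp1-Cre library had 567.3 bp in Ctrl and 321.7 bp in cKO, close to the 583.3 bp and 311.5 bp of the members. Their Mesp1-Cre peaks had a median width of 313 bp. Mesp1-Cre peaks also lay near the members: 266 members had one within 10 kb and 25 had one within 500 bp, with a median gap of 13874 bp. In 573 members some base was covered by every library that called the region, so that 76 members were joined from neighbouring peaks.

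Peaks of the members were narrower in cKO than in Ctrl libraries. For the 167 members with a peak in each of the 6 Tbx1-Cre libraries, median widths were 632, 638 and 673 bp in the Ctrl libraries and 426, 307 and 281 bp in the cKO libraries. All 3 Ctrl medians lay above all 3 cKO medians. The means were 647.7 ± 22.1 bp and 338 ± 77.3 bp (SD, n = 3 each), or 309.7 bp apart (p = 0.1 in an exact two-sided permutation test, the lowest value open to groups of 3). Width is a property of the called interval and moves with depth and with the share of reads in open chromatin, which could not be examined here.

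Because cKO peaks were narrower throughout, each median was divided by that of the 13644 regions called in all 9 libraries. This ratio was 0.749, 0.795 and 0.799 in the Ctrl libraries and 0.633, 0.465 and 0.489 in the cKO libraries. The members thus lost more width than regions called in all 9 libraries, and the groups did not overlap. Both sets were selected on peak calls. The comparison therefore cannot separate a trait of the members from the choice of reference. Mean ratios were 0.781 ± 0.0279 and 0.529 ± 0.0909 (SD, n = 3 each), or 0.252 apart (p = 0.1 in the same exact permutation test). With only the widest 75% of each list they were 0.164 apart. A similar loss was seen outside the members. Median widths were 646.3 bp in Ctrl and 343.3 bp in cKO for the 167 members. Regions called in all Tbx1-Cre libraries and in 1 Mesp1-Cre library had 648.5 and 353 bp. Those called in 2 Mesp1-Cre libraries had 618.8 and 366.8 bp. Regions of all 9 libraries had 836 and 633.7 bp. Most regions of all 9 libraries lie at promoters and the members do not. Relative to the 3156 of them more than 1 kb from a TSS, a comparison added after the data were seen, the ratios were 0.895 ± 0.0410 in Ctrl and 0.673 ± 0.0692 in cKO (SD, n = 3 each), or 0.222 apart (p = 0.1, exact permutation test).

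**Figure D2:**
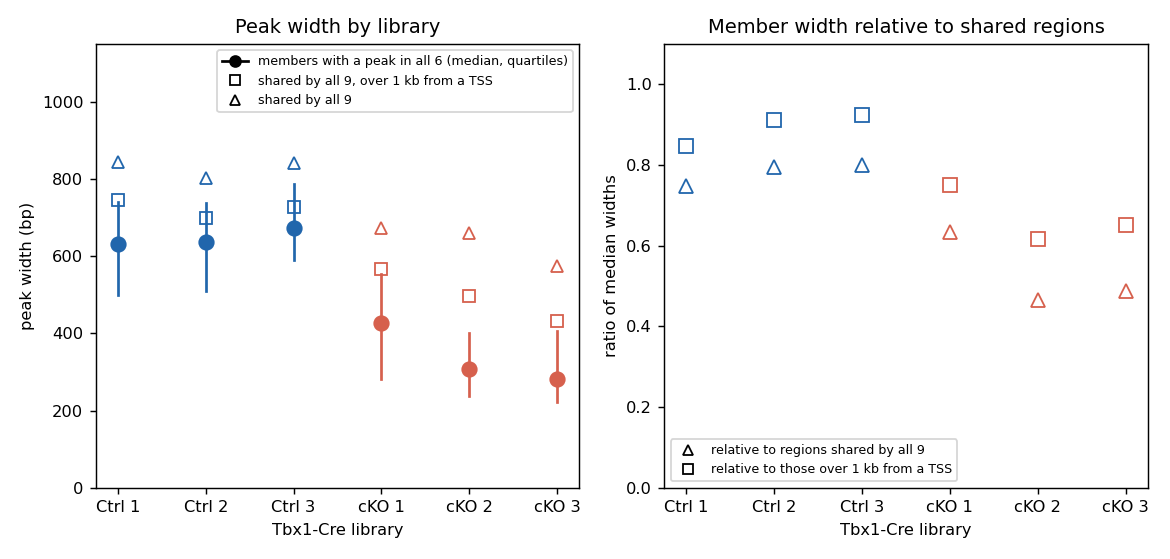
Left, peak width in bp in each Tbx1-Cre library (blue, Ctrl; red, cKO), with filled circles for the median and lines for the quartiles over the 167 members called in all 6 libraries, and open symbols for medians over regions shared by all 9 libraries. Right, member medians divided by those of the shared regions; all 3 Ctrl ratios lie above all 3 cKO ratios, for both sets of shared regions.

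Region by region, 162 of these 167 members had a lower mean width in cKO. So had 12991 of 13644 regions of all 9 libraries, 3052 of the 3156 over 1 kb from a TSS, and 329 of 336 with 1 Mesp1-Cre library. This count was therefore not particular to the members. Their median ratio of cKO to Ctrl width was 0.556. It was 0.692 for shared regions over 1 kb from a TSS and 0.572 for the 336 regions called in all 6 Tbx1-Cre libraries and in 1 Mesp1-Cre library. Every Ctrl peak was wider than every cKO peak in 107 members (64.1%) and the reverse held in 0. Over all regions called in the 6 libraries these shares were 43.3% and 0.114%, and for shared regions over 1 kb from a TSS the first was 51.3%. For the regions with 1 Mesp1-Cre library it was 60.1%, near that of the members.

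In 5 of these 167 members the mean cKO width was not below the mean Ctrl width, as it was not in 22 of the 482 members with 2 cKO libraries. The 5 are named because of these values. One had the TSS of Foxp1, a forkhead transcriptional repressor gene, as its nearest protein-coding TSS, at a distance of 131034 bp. Its peaks were 351, 430 and 598 bp in Ctrl and 651, 435 and 592 bp in cKO. It was intergenic, at chr6:98822273-98823007. The member nearest to Laptm4a, which encodes a lysosomal membrane protein, had 527, 242 and 425 bp in Ctrl and 374, 562 and 491 bp in cKO. The others lay nearest to Fam76b, Exoc4 (a subunit of the exocyst, which tethers secretory vesicles) and Gm5356. In all 5 the widths of the 2 groups overlapped.

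Members were distal. Within 1 kb of a TSS lay 41 members, or 6.32%, with a 95% Clopper-Pearson interval of 4.57% to 8.47% that covers counting error only. Without Mesp1-Cre replicate 1 it was 10.7%. The share was 76.9% for regions of all 9 libraries, 26.0% for all merged regions, 7.58% for the 2270 regions of the Ctrl libraries alone and 3.93% for the 484 regions called in all 3 Mesp1-Cre and no Tbx1-Cre library. The median distance from the midpoint to the nearest TSS was 24500 bp, against 135 bp for regions of all 9 libraries. By midpoint 341 members (52.5%) were intergenic, 280 (43.1%) intronic, 13 lay in an exon outside a UTR and 15 in a UTR. Among regions kept in at least 2 cKO libraries, the share within 1 kb of a TSS was 13.1% with 1 Mesp1-Cre library, 29.97% with 2 and 72.1% with 3. Merged regions of the members had a median width of 740 bp (quartiles 649 and 885 bp). Chromosome X held 4 members, or 0.255% of its merged regions, while the autosomes ranged from 0.513% on chromosome 16 to 1.26% on chromosome 9.

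**Figure D3:**
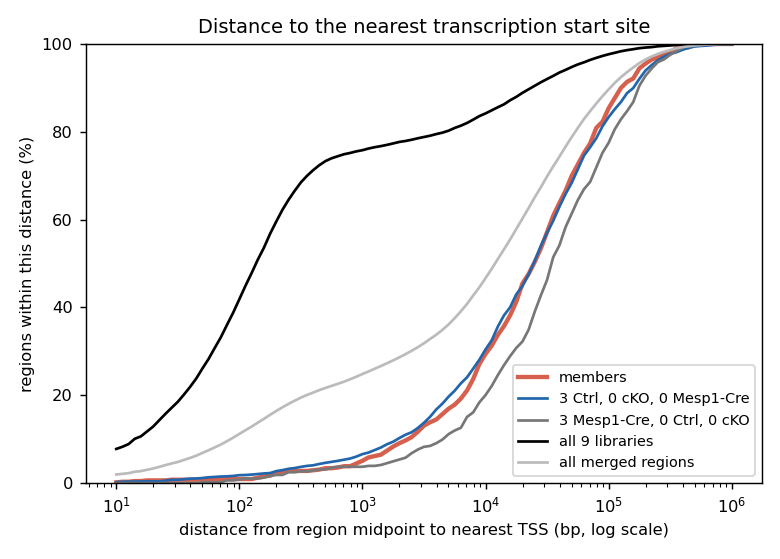
Share of regions (percent, y axis) whose midpoint lies within a given distance of the nearest TSS (bp, log scale, x axis). The curve of the 649 members runs with that of the regions of the Ctrl libraries alone, with medians of 24500 and 24660 bp, and far from that of regions of all 9 libraries, with a median of 135 bp.

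Letters of 12 motifs were sought in the central 300 bases, on both strands. Across the number of Mesp1-Cre libraries, the contrast was sharpest at CTCF, the insulator protein that anchors chromatin loops, searched as CCA, any 2 bases, AG, any 2 bases and GGC. Of the 608 members over 1 kb from a TSS, 17 held it, or 2.80% (95% Clopper-Pearson interval 1.64% to 4.44%). Distal regions kept in at least 2 cKO libraries but called in 1, 2 or 3 Mesp1-Cre libraries held it in 7.38%, 8.85% and 8.13% of cases, and all distal merged regions in 6.77%. Distal regions of the Ctrl libraries alone held it in 2.67% and those of the Mesp1-Cre libraries alone in 1.08%, so a low share was shared by the sets limited to one Cre line. Without Mesp1-Cre replicate 1, the share among distal regions that then met the rule was 5.44%, and leaving out any other library gave 1.99% to 3.51%.

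The GATA letters AGATAAG, bound by factors of heart, blood and endoderm, were present in 8 distal members, or 1.32% (interval 0.570% to 2.58%). They were in 4.80% of all distal merged regions and in 17.6% of the 465 distal regions called in the Mesp1-Cre libraries alone. Distal regions of the Ctrl libraries alone held them in 2.48% (interval 1.86% to 3.24%, which overlaps that of the members), and distal regions of all 9 libraries in 2.72%. With 1, 2 and 3 Mesp1-Cre libraries the share was 2.68%, 2.55% and 3.61%. Without cKO replicate 1 the share among distal regions that then met the rule was 0.5%, and leaving out any other library gave 1.17% to 1.94%. The interval with 3 Mesp1-Cre libraries, 3.08% to 4.20%, lay wholly above that of the members, and those with 1 or 2 libraries overlapped it.

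The T-box letters AGGTGTGA, the core bound by TBX1 and its relatives, were in 7 distal members, or 1.15%, with 1.05% among all distal merged regions. The grainyhead letters AACCNGTT, bound by the Grhl factors of epithelia, were in 2.63%, against 2.13%. The letters of AP-2 (GCCNNNGGC), factors of surface ectoderm and neural crest, were in 12.3% against 10.4%. TEAD letters (ACATTCC), bound by the factors that carry Hippo signals, were in 8.22% against 6.63%, forkhead letters (TGTTTAC) in 7.07% against 5.46%, and SOX letters (ACAATGG) in 4.93% against 3.60%. AP-1 letters (TGANTCA) were in 8.39% against 8.56%, homeodomain letters (TAATTA) in 6.58% against 6.66%, the E-box CAGCTG in 29.1% against 25.4%, and HNF1 letters in 0.164% against 0.181%. The share of all distal regions lay inside the members' interval for these motifs except the E-box, whose interval began at 25.5%. GC content of the windows was 49.8% ± 5.19 (SD) in the distal members, 49.8% ± 6.76 in all distal regions and 55.9% ± 8.11 in distal regions of all 9 libraries. A match to these letters is not a bound site, and short motifs occur by sequence composition alone.

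**Figure D4:**
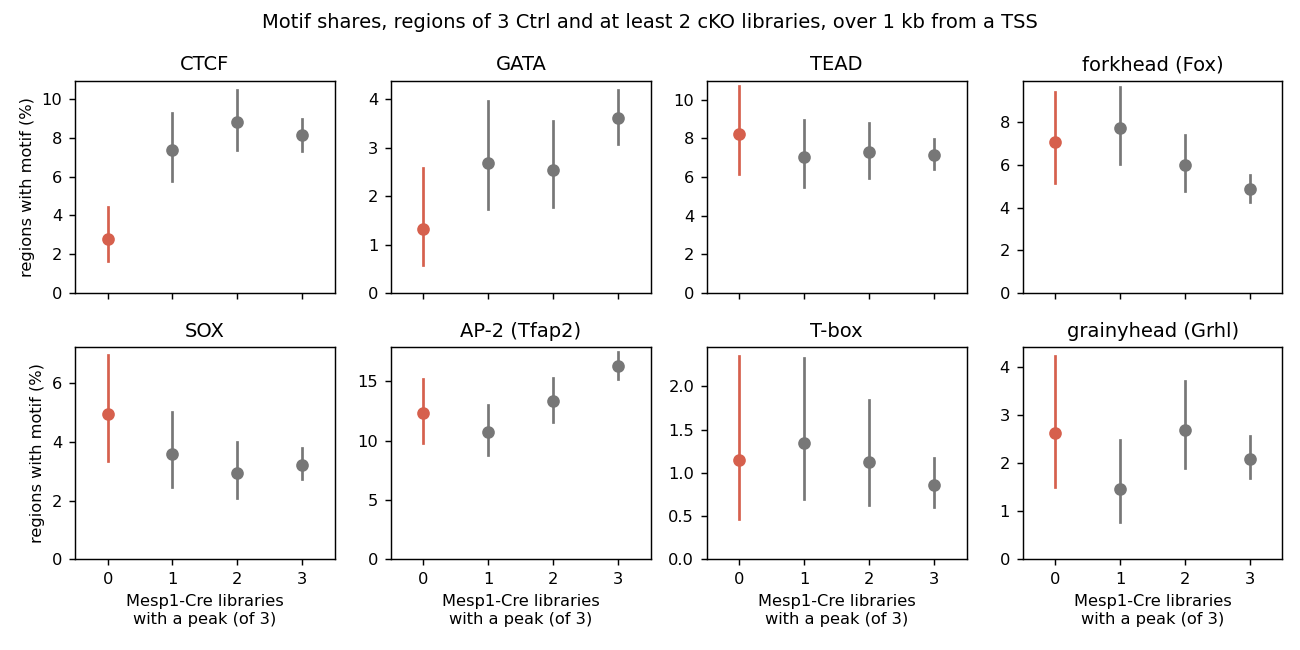
Share of regions (percent) with the letters of 8 motifs, over 1 kb from a TSS and called in 3 Ctrl and at least 2 cKO libraries, by the number of Mesp1-Cre libraries with a peak; red points are the 608 distal members and lines are 95% Clopper-Pearson intervals. CTCF letters were in 2.80% of the members and in 7.38% to 8.85% of the other sets.

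Genes of 8 lists were then examined for a member inside the gene or less than 10 kb from it, which 1.72% of all 22208 protein-coding genes had. Of the lists of epithelial tissues, 0 of 15 genes of pharyngeal endoderm, 0 of 27 epithelial genes and 0 of 13 genes of surface ectoderm had one. At a background of 1.72% such lists would hold few members in any case, and this does not show a lack of them. The list of cardiopharyngeal mesoderm had 0 of 20, the otic list 1 of 24, cardiomyocytes 1 of 10, endothelium and blood 2 of 15, and neural tissue and neural crest 1 of 11 that were in the annotation. With a limit of 50 kb, where 3.98% of all genes had a member, the counts were 0, 0 and 1 for endoderm, epithelium and ectoderm, 0 for cardiopharyngeal mesoderm, 1 for the otic list, 2 for cardiomyocytes, 3 for endothelium and blood and 1 for neural tissue. None of these counts was adjusted for gene length, and a longer gene offers more room for a member. The ectodermal gene was Tcfap2a, which encodes AP-2 alpha, with an intergenic member 26243 bp from its TSS.

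The otic gene was Eya1, a transcriptional coactivator needed for the inner ear. Its member, chr1:14305511-14306691, lay 5820 bp upstream of the nearest TSS, with Ctrl peaks of 696, 934 and 488 bp and cKO peaks of 274 bp in replicate 2 and 261 bp in replicate 3. cKO replicate 1 had no peak there. All 9 libraries had a peak at or beside the Eya1 TSS itself, so Mesp1-Cre peaks were missing at the member and not at the gene.

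Actc1, which encodes cardiac alpha actin, was the only list gene with a member at its TSS. The member, chr2:113878204-113879020, had its midpoint 11 bp from the TSS, in an exon with UTR. Peaks of 676, 637 and 664 bp were called in the Ctrl libraries and peaks of 244 and 232 bp in cKO replicates 2 and 3. No Mesp1-Cre library had a peak there. The label of these libraries names the heart, while the methods describe dissections without it. Among the 10 cardiomyocyte genes, 3, 2 and 2 had a peak within 1 kb of a TSS in the Mesp1-Cre libraries and 3, 3 and 3 in the Ctrl libraries. Tnni1 went the other way from Actc1, with such a peak in all 3 Mesp1-Cre libraries and, among the Ctrl libraries, in replicate 1 only. The Mesp1-Cre peak nearest to the Actc1 member was 4109 bp away.

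Endothelial genes were represented by Tie1, a receptor tyrosine kinase, and Erg, an ETS factor that maintains endothelial identity. The Tie1 member, chr4:118149535-118150419, was intronic, with Ctrl peaks of 791, 724 and 810 bp and cKO peaks of 369, 224 and 226 bp. The Erg member, chr16:95596073-95597063, was also intronic, with 920, 658 and 788 bp in Ctrl and 492 and 307 bp in cKO replicates 1 and 2. In both genes all Ctrl peaks were wider than all cKO peaks. Runx1, a regulator of blood formation, had an intergenic member 19818 bp from its TSS with 654, 648 and 580 bp in Ctrl and 418 and 407 bp in cKO replicates 1 and 3. The member of Ets1, an ETS factor of endothelium and neural crest, was intronic, at chr9:32464554-32465302, with 723, 517 and 702 bp in Ctrl and 550 and 331 bp in cKO replicates 1 and 2. Here the peak of cKO replicate 1 was wider than that of Ctrl replicate 2. All 3 Mesp1-Cre libraries had a peak within 1 kb of a TSS of Erg, Runx1 and Ets1. Among the Ctrl libraries, Erg had such a peak in replicates 1 and 3 only. Tie1 had none in any library. At Erg, Runx1 and Ets1, Mesp1-Cre peaks were thus missing at the member and not at the gene.

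**Figure D5:**
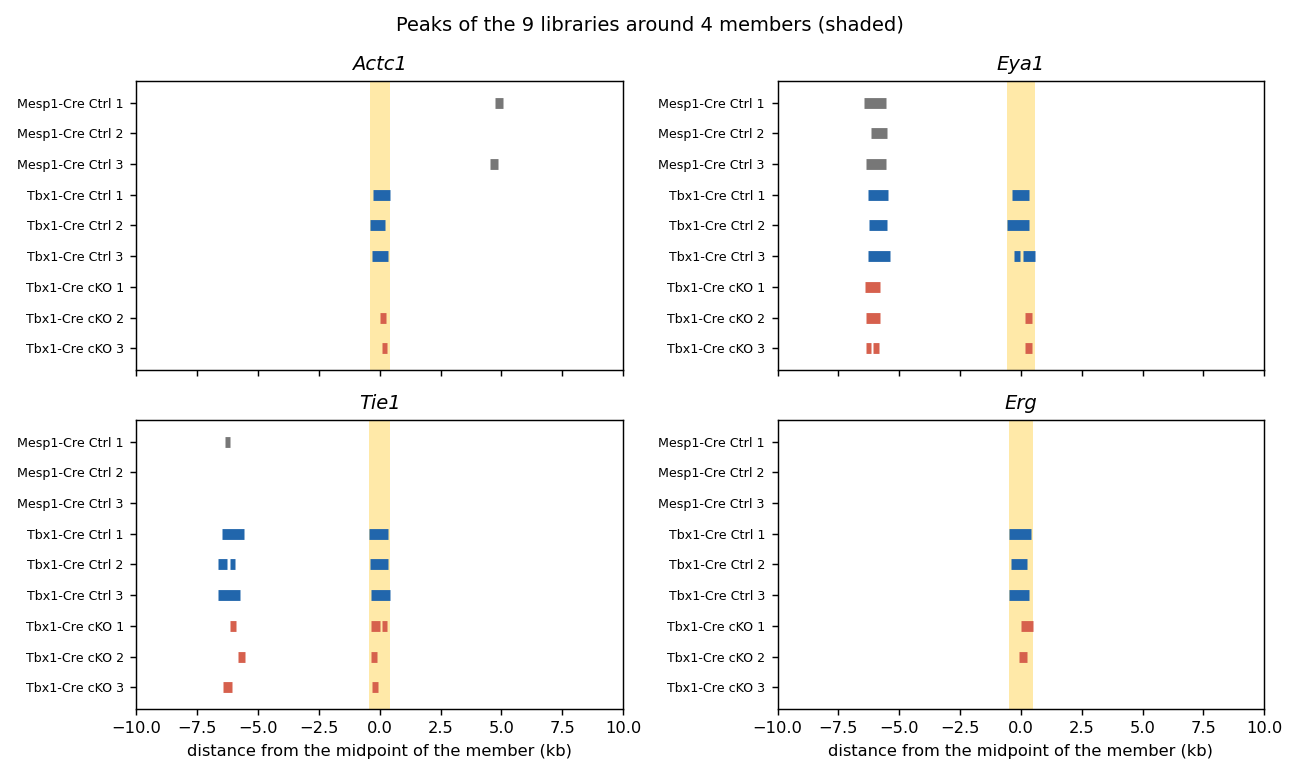
Peaks of the 9 libraries (rows; grey, Mesp1-Cre Ctrl; blue, Tbx1-Cre Ctrl; red, Tbx1-Cre cKO) around the members of Actc1, Eya1, Tie1 and Erg; the x axis is the distance in kb from the midpoint of the member, which is shaded. Ctrl peaks fill most of each member, cKO peaks cover a part of it, and Mesp1-Cre peaks lie only outside.

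The 8 members with the widest peaks, by the mean over the libraries that called them, came next. The widest, chr2:93615318-93616549, was in an intron of Ext2, which encodes a polymerase of heparan sulfate chains, and had peaks of 920, 978 and 1151 bp in Ctrl and 739, 904 and 347 bp in cKO. All 3 Ctrl peaks were wider than the widest cKO peak. The second, intergenic at chr15:7011928-7012933, lay 67129 bp upstream of Lifr, the receptor gene for leukaemia inhibitory factor, with 795, 972 and 992 bp against 740 and 467 bp in cKO replicates 1 and 2. The third, in an intron of Dock5, a Rac activator, had 902, 687 and 908 bp against 874 and 539 bp in cKO replicates 1 and 3, and there the groups overlapped. The fourth lay 158084 bp from Hs2st1, which encodes another enzyme of heparan sulfate, had a Mesp1-Cre peak 216 bp away, and ranged from 648 to 1353 bp in Ctrl and from 281 to 574 bp in cKO. The fifth was in an intron of Lpar1, a receptor for lysophosphatidic acid, with 833 to 985 bp in Ctrl and 503 to 532 bp in cKO. The remaining 3 were intergenic, and the nearest protein-coding TSS (Cox7b2, Dad1 and B130024G19Rik) was at least 156243 bp away.

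Few genes had several members. The 649 regions were nearest to the TSS of 603 protein-coding genes, or 2.72% of all, and 45 genes (0.203%) were nearest to 2 or more. Tbx18, a T-box gene of the epicardium, sinus venosus and somites, was nearest to 3. Its member at chr9:87577004-87578387 had peaks of 685, 638 and 1306 bp in Ctrl and 252, 365 and 382 bp in cKO. The one at chr9:87596876-87597581 had 471, 671 and 704 bp in Ctrl and 346 and 217 bp in cKO replicates 1 and 2, and lay 753 bp from a Mesp1-Cre peak. The third, at chr9:87790889-87791794, was 165246 bp upstream, with 686, 659 and 897 bp in Ctrl and 295, 416 and 210 bp in cKO. In each of the 3 every Ctrl peak was wider than every cKO peak, and both downstream members held TEAD letters.

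The other 44 genes were nearest to 2 members each, and of these the 4 with the widest peaks were Fam92b, Foxp1, Vwc2 and Hace1. At Vwc2, which encodes a secreted antagonist of BMP signals, the wider member, in an intron, had 734, 717 and 755 bp in Ctrl and 723, 496 and 566 bp in cKO. The second Foxp1 member was in an intron of the gene, with 862, 794 and 883 bp in Ctrl and 701 and 200 bp in cKO replicates 1 and 3. At Fam92b the 2 members had 734 to 1199 bp in Ctrl and 200 to 385 bp in cKO. At Hace1, a ubiquitin ligase gene, one of the 2 members lay 1262765 bp from the TSS, so that nearest here does not mean near. Among the rest, chosen after the values were seen, were Tgfbr2, a receptor for TGF-beta, Id2, an inhibitor of bHLH factors, Dmrt2, a regulator of the dermomyotome, Sox5 and Col12a1.

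Gene families were counted by symbol, after the data were seen, with a member within the gene body and 50 kb, which 3.98% of all protein-coding genes had. Of 19 Adamts genes, which encode secreted metalloproteases of the extracellular matrix, 5 had one: Adamts5, Adamts6, Adamts12, Adamts17 and Adamts20. Of 32 genes counted as integrin genes by symbol, not all of which need encode a subunit, 5 had one. These 5 were alpha subunits: Itga4, Itga7, Itga8, Itga9 and Itga11. The share of alpha subunits among the 32 is not given here. Collagen genes had 4 of 43 (Col5a1, Col6a3, Col12a1 and Col13a1) and forkhead genes 3 of 42. T-box genes had 1 of 13, Sox genes 1 of 18, Eph receptor and ephrin genes 1 of 22, Fgf genes 2 of 22 and Wnt genes 0 of 19. No Hox gene of 39, no claudin of 27, no keratin of 46 and none of the 6 GATA, 6 Iroquois and 6 Dlx genes had one, in lists so short that a share of 3.98% would leave few genes in any of them. The median length was 114.0 kb for the Adamts genes, 54.0 kb for the integrin genes and 15.5 kb for all protein-coding genes, and a longer gene takes up more sequence in which a member can fall. By nearest TSS, which depends on length too, members were assigned to 6 of 19 Adamts genes (31.6%), 3 of 32 integrin genes (9.38%) and 2.72% of all genes. The part of gene length in these counts was not tested. Regions of the Ctrl libraries alone lay within 50 kb of 6 of 19 Adamts genes (31.6%) and 6 of 32 integrin genes (18.8%). They did so for 14 of 43 collagen genes (32.6%), 10 of 42 forkhead genes (23.8%) and 11.8% of all protein-coding genes. Shares above those of all genes in these families were therefore not particular to the members.

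Examples from these families, chosen after the values were seen, were the following. The intronic member of Itga11, a collagen receptor of mesenchymal cells, had 1123, 986 and 1050 bp in Ctrl and 542, 325 and 382 bp in cKO. That of Adamts12 had 610, 675 and 884 bp in Ctrl and 275, 543 and 234 bp in cKO. The intronic member of Adamts5 differed, with 255, 750 and 720 bp in Ctrl and 281, 396 and 437 bp in cKO, and the groups overlapped there. They also overlapped at Itga7, with 200, 278 and 407 bp in Ctrl and 224 and 221 bp in cKO replicates 1 and 2. Fgf6 and Fgf23 shared a single member between them.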

How the data were processed

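ATAC-seq peak lists of 9 libraries were used, with groups taken from the sample labels. The deposited intervals hold a chromosome, a start and an end, with no score or read count. As its methods state, the authors of the study cut adapters from the reads, aligned them to mm9 with Bowtie2 (2.3.4.3), kept unique concordant pairs, removed duplicates and mitochondrial reads, and called peaks in each library with MACS2 without pooling replicates. Depth is unknown. Starts in the Mesp1-Cre lists were shifted by 1 bp (narrowest peak 199 bp, 200 bp in the others).

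Peaks were merged and classed in Python 3.11.15 (pandas 2.3.3, scipy 1.17.1, plots with matplotlib 3.10.9). Width was that of the widest peak of a library in a region. TSS, genes and sequence came from the NCBIM37 reference. Of 136 list genes 135 were matched, 4 under an older symbol. The comparison of libraries used an exact permutation test (two-sided), and shares of regions were described with Clopper-Pearson intervals. The members, lists, motifs and alternatives were chosen with earlier results of these data known. The genes and regions named were, by rule, the 8 widest members, the 5 genes with most members (ties broken by width) and list genes with a member. Other names were chosen after their values were seen: members not narrower in cKO, further genes with 2 members, and families. The procedures were tested on simulated data. 1 motif that had been searched is not reported here.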

Additional observations from a re-analysis of the deposited data

Results flagged for a closer look

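Peaks on the mitochondrial chromosome, which takes no part in the comparisons, were present in the Mesp1-Cre lists, with 2 in each of the 3 libraries, and absent from the 6 Tbx1-Cre lists. The methods of the study state that mitochondrial reads were removed. Whether the 2 sets of lists were processed alike was not tested. Groups of 3 libraries are too small to look for single libraries that stand apart.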

How the results depend on the processing

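The number of members, 649, was 424 when only the widest 75% of each list was kept and 167 when a peak in all 3 cKO libraries was required. With 1 library left out at a time it ranged from 212 to 1502, 212 without cKO replicate 1, 322 without cKO replicate 2 and 1502 without Mesp1-Cre replicate 1. It stayed between 463 and 649 with an equal number of widest peaks, autosomes only, a base common to all calling libraries, no Mesp1-Cre peak within 500 bp, or Mesp1-Cre starts moved by 1 bp (added after the data were seen). The width difference kept its direction, from 295.1 to 345 bp with a library left out, as did the relative width, from 0.246 to 0.299. With the widest 75% of each list they were 265.3 bp and 0.164, and with means over regions in place of medians 279.9 bp and 0.182. With the replicate number as a block, the paired sign-flip gave 309.7 bp and 0.252 (p = 0.25 in both exact tests, two-sided, the lowest value that 3 pairs allow). The numbers share no label beyond themselves, and deviations of same-numbered libraries correlated at 0.204, 0.0716 and 0.0204, so they were not treated as pairs. No design here can reach a p of 0.05.

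The share within 1 kb of a TSS, 6.32%, was 4.19% for members of all 3 cKO libraries, 12.02% within 2.5 kb, and 5.11% to 10.7% with a library left out (10.7% without Mesp1-Cre replicate 1). Shares with a motif left their interval in 200-bp windows for TEAD (5.39%), forkhead (5.24%), T-box (0.308%), AP-2 (9.71%), AP-1 (5.55%), E-box (20.3%), homeodomain (4.16%) and HNF1 (0%), where a smaller window holds fewer matches by construction. In members of all 3 cKO libraries they did so for AP-2 (16.8%) and homeodomain (8.98%). With each library left out, an alternative added after the data were seen, CTCF letters were in 2.36% to 5.33% of all members (3.08% with all libraries) and GATA letters in 0.472% to 1.73% (1.23%). By nearest protein-coding TSS within 100 kb, list genes with a member became 1 for endoderm (Sox2), 1 for ectoderm, 2 for the otic list (with Spry2) and 4 for endothelium and blood (with Kdr and Runx1). With 50 kb they became 1 for ectoderm and 2 for cardiomyocytes (with Tnni1). For the nearest TSS within 100 kb, the share of all protein-coding genes is not given here. Without that limit 2.72% of them were nearest to a member.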

Other observations

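Distal regions called in all 3 Mesp1-Cre libraries and in no Tbx1-Cre library, 465 in number, differed in letters from the members beyond GATA. Homeodomain letters were in 12.04% of them (95% Clopper-Pearson interval 9.23% to 15.4%) and in 6.58% of the distal members (4.74% to 8.85%). AP-2 letters were in 6.02% (4.04% to 8.59%), against 12.3% (9.83% to 15.2%). TEAD letters were in 10.1%, and the intervals of both sets overlapped. CpG dinucleotides averaged 3.91 and 3.97 per 300-bp window in the 2 sets, and 10.8 in distal regions of all 9 libraries.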
